A study of Mus musculus with 2 samples.

Results

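The genes described here were 10 genes of the junctions and filaments of the retinal pigment epithelium (RPE): the tight junction genes Cldn19, Ocln and Tjp1, the cadherins Cdh1, Cdh2 and Cdh3, the keratins Krt8 and Krt18, and Vim and Snai2, which are read as marks of dedifferentiation. They were taken by name, and all 10 were found among the 32285 genes of the deposited matrices. Their UMIs (unique molecular identifiers, each standing for 1 captured RNA molecule) were summed per cell type and library. RPE cells were the cells with at least 10 UMIs of Rpe65, the isomerase of the visual cycle, and under 500 CPM (UMIs of the gene per 1000000 UMIs) of Dcn, a fibroblast proteoglycan. They were also split by Serpina3n, a secreted protease inhibitor, below and at or above 1000 CPM.

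The RPE is a single layer of polarised cells that closes the outer blood-retinal barrier. Claudins and occludin span the membrane at the tight junction and are tied to actin by the scaffold ZO-1, the product of Tjp1. Cadherins hold neighbouring cells together below that, P-cadherin (Cdh3) and N-cadherin (Cdh2) being the usual ones of the RPE and E-cadherin (Cdh1) that of many other epithelia. Keratin 8 and keratin 18 pair with each other to form the filaments of simple epithelia, whereas vimentin, from Vim, forms those of mesenchymal cells and also of cultured or injured RPE. Slug, from Snai2, is a zinc-finger repressor of epithelial junction genes. In humans claudin-19 is a main claudin of the RPE, and elsewhere it is found in kidney tubules and in the Schwann cells of peripheral nerve.

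The study asked how the mouse RPE responds, cell by cell, to a low dose of doxorubicin (Dox), a DNA-damaging drug used here to induce senescence. C57BL/6J males aged 3 months received, under the retina of both eyes, 1 µl of Dox at 100 ng/µl or, as control, 1 µl of PBS, and after 7 days the 10 eyes of 5 mice were pooled per group. The retina was removed, the rest of the eye cup (RPE, choroid and sclera) was dissociated with papain, and 1 library per group was made with a 10x 5′ kit. An injection under the retina reaches only part of the RPE, so the Dox library may also hold RPE cells that were not exposed.

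The control library kept 20180 cells and the Dox library 15426 after the study's filters. Of these 1137 (5.63%, exact binomial 95% interval 5.32 to 5.96) and 1339 (8.68%, 8.24 to 9.14) were RPE cells by the gate. Their median depths were 16462 UMIs in control and 19730 in Dox. The 13 RPE markers made up 227751 and 224598 CPM of their RNA, with none at 0, against 12910 and 17009 CPM in the other cells. Rpe65, which set the gate, is among the 13, so part of this contrast comes from the rule. In both libraries 12 of the 13 were at least 1.5-fold higher in RPE than in other cells, and 1, Best1, was lower. Serpina3n-high cells numbered 11 in control (median 34870 UMIs) and 191 in Dox (28306), and Serpina3n-low cells 1126 (16397) and 1148 (18071). Near that threshold, 11 control and 37 Dox cells lay at 500 to 1000 CPM of Serpina3n, and 4 and 33 at 1000 to 2000 CPM. Different clusters held most RPE cells in the 2 libraries: cluster 9 had 772 control and 0 Dox cells, cluster 6 had 165 and 927, and cluster 21 had 7 and 185, among them 147 of the 191 Serpina3n-high Dox cells. Cell barcodes shared by both libraries numbered 441, of which 24 control and 42 Dox cells were RPE cells. With 1 library per group no difference between control and Dox has a replicate check, and no test between them was made. All intervals below are 95% intervals of the UMI counts and cover counting error only, so the spread between mice or between cells can exceed them.

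Positions are on the mouse build GRCm38 (mm10), by the GENCODE vM21 annotation, which held the file identifier of each of the 10 genes. Krt8 (ENSMUSG00000049382, chr15:101996698-102004482, minus strand) and Krt18 (ENSMUSG00000023043, chr15:102028180-102032027, plus strand) are neighbours that point away from each other, with RefSeq starts 23874 bases apart. Cdh3 (chr8:106510891-106557297) and Cdh1 (chr8:106603351-106670246) also lie side by side, both on the plus strand, with 46053 bases between them. Vim is at chr2:13573927-13582826 and Cldn19 at chr4:119255414-119262438, both on the plus strand. Tjp1 (chr7:65296165-65527781) and Ocln (chr13:100496507-100552718) are on the minus strand. Snai2 is at chr16:14705852-14709385, plus strand.

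Sequence upstream of a RefSeq start is shown for Tjp1 and Vim, to show which core motifs stand there. In Serpina3n-high cells of the Dox library the first was lower and the second higher. Both RefSeq starts lie inside the GENCODE span of the gene. That of Tjp1 is at 65371244, whereas its span begins at 65527781 on the minus strand, so its window is not upstream of the whole gene. Both sequences are from RefSeq on GRCm38.p6, 5′ to 3′ on the strand of the gene. They lie within 250 bases before the RefSeq start and outside annotated exons, except the stretch of 30 bases around a motif of Vim. Capitals mark motif matches.
Tjp1 (chr7:65371245-65371494, minus): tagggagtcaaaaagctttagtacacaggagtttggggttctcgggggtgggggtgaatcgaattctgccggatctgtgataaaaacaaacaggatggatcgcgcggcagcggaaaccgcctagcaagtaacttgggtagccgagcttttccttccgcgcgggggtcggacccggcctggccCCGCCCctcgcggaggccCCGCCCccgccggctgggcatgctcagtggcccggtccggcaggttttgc
Vim, 30 bases around the TATA box (chr2:13574267-13574296, plus): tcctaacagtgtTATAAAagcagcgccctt

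Both strands were searched. The letters were TATAAA, the TATA box, GGGCGG, known as the GC box, and, for the AP-1 site, TGANTCA. Vim held TATAAA 32 bases before its RefSeq start, a motif found in 12.4% of 32851 RefSeq windows of the same length. Tjp1 held 2 GC boxes, 68 and 50 bases before its RefSeq start, and a GC box was found in 32.7% of windows. Both RefSeq starts of Cldn19 and of Ocln also had a GC box. TGANTCA, present in 6.75% of windows, was in none of the 8 windows of the 6 members with an entry. A match describes the letters in the window and not binding. Cdh1, Cdh2, Cdh3 and Snai2 had no entry.

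In RPE cells the keratins were the most abundant of the 10 genes and Cldn19 was not seen. The kit counts each molecule once whatever its length, so levels of different genes are compared here as molecules and not per length. In control, the order was Krt18 (1534 CPM), Krt8 (321 CPM), Vim (254 CPM), Cdh3 (96.5 CPM), Tjp1 (20.9 CPM), Cdh2 (13.4 CPM), Ocln (9.46 CPM), Cdh1 (3.15 CPM) and Snai2 (0.450 CPM). In Dox it was the same down to Ocln, with 1623, 339, 250, 104, 22.1, 14.8 and 8.24 CPM, then Cdh1 at 0.481 and Snai2 at 0.0739 CPM. The counting intervals of neighbours in this order did not overlap in control, and in Dox only those of Cdh1 and Snai2 did.

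**Figure D1:**
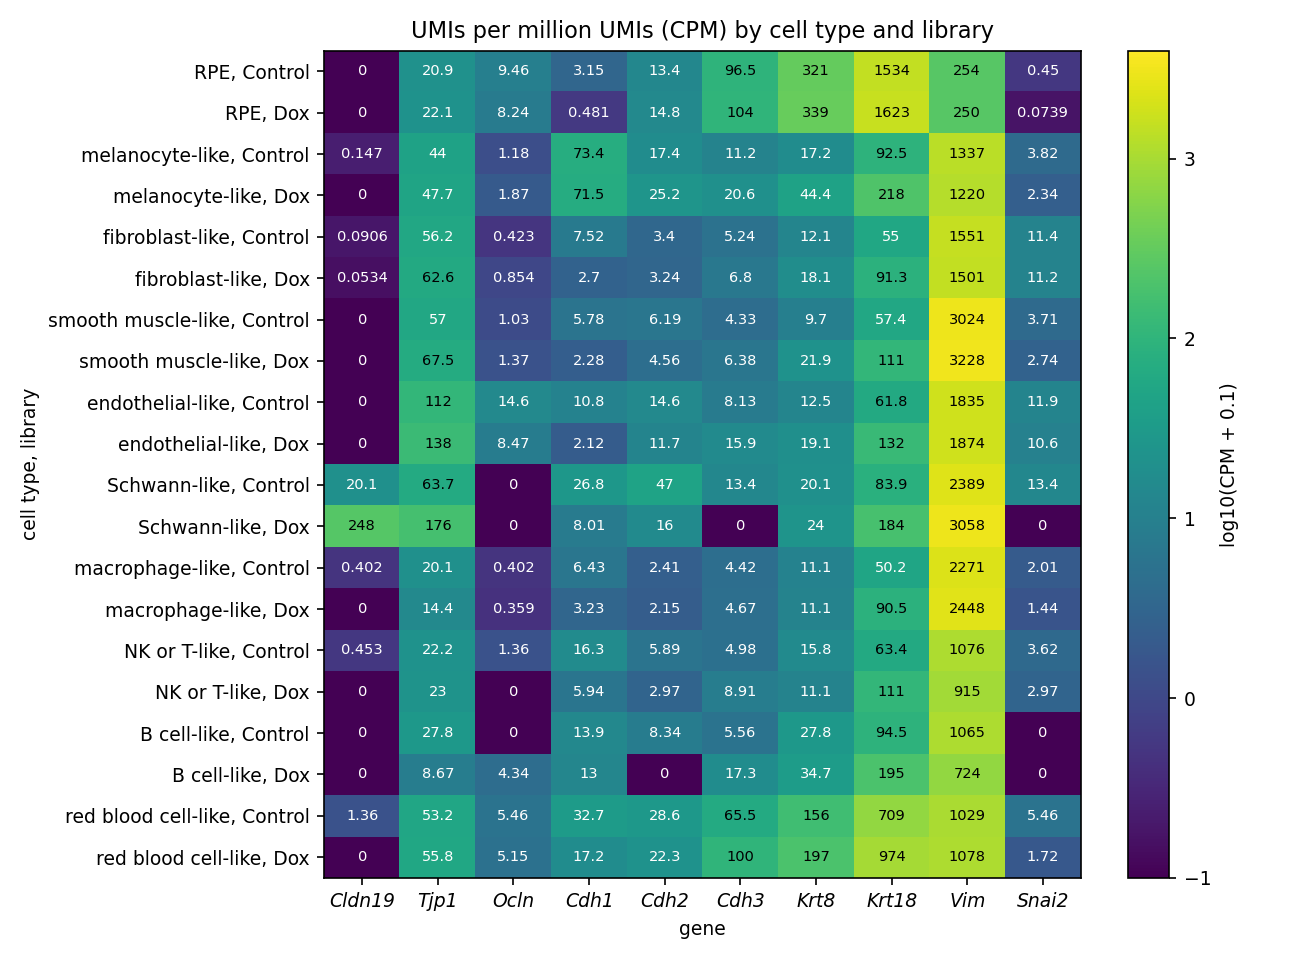
Level of each gene (CPM, printed in each field; colour, log10 of CPM + 0.1) by cell type and library, over the summed UMIs of the cells. Krt18 and Krt8 are highest in the RPE rows, and Cdh3 is high there and in the red blood cell-like rows (65.5 and 100.4 CPM). The red blood cell-like cluster also held 1855 CPM of Rpe65 in control and 2564 CPM in Dox. Vim is lowest in the RPE rows, Cdh1 highest in the melanocyte-like rows and Cldn19 in the Schwann-like rows.

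Set against the cells of the other types (under 10 Rpe65 UMIs and in no RPE-like cluster; 18411 in control and 13578 in Dox), 5 of the 9 measured genes were at least 1.5-fold higher in RPE cells with an interval that excluded equality, and the other 4 lower, in both libraries. These calls are common, since 19.4% of 14886 genes were higher and 45.2% lower in control by the same rule, and 20.9% and 43.9% of 14541 in Dox. The median log2 ratio over all genes was -0.44 in control and -0.37 in Dox. Most of the other cells were fibroblast-like, so these ratios largely set RPE cells against fibroblast-like cells. Cldn19 had too few UMIs for this comparison. What follows takes the genes by role.

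Cldn19 had 0 UMIs in RPE cells of both libraries, which allows a level of up to 0.150 CPM in control and 0.111 CPM in Dox (3 counts of the total). Its level was highest in the Schwann-like cells, the glia of peripheral nerve. There were 6 UMIs in 2 of 75 cells in control (20.1 CPM, 7.39 to 43.8) and 31 UMIs in 7 of 33 cells in Dox (248 CPM, 169 to 352). Outside them 11 UMIs were seen in 20105 cells in control and 3 in 15393 in Dox. Of the 31 Dox UMIs, 11 were in a single cell and 23 in the 3 cells with most. The higher level in the Dox library thus rests on 7 cells.

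Ocln was low but concentrated in RPE and endothelial-like cells. RPE cells had 9.46 CPM (8.16 to 10.9) in control and 8.24 CPM (7.20 to 9.40) in Dox, and endothelial-like cells 14.6 CPM (9.64 to 21.3) and 8.47 CPM (3.66 to 16.7). The intervals of the RPE and endothelial-like cells overlapped in each library. Fibroblast-like cells had 0.423 and 0.854 CPM. The log2 ratio of RPE over other cells was 3.44 for control (3.05 to 3.84) and 2.96 for Dox (2.57 to 3.37).

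Tjp1 was lower in the RPE than in most types. ZO-1 is used by many kinds of cell. Endothelial-like cells had 112 CPM (96.9 to 128) in control and 138 CPM (115 to 163) in Dox, fibroblast-like cells 56.2 and 62.6 CPM, and RPE cells 20.9 CPM (19.0 to 23.0) and 22.1 CPM (20.3 to 23.9). Macrophage-like cells (20.1 and 14.4 CPM) and NK or T-like cells (22.2 and 23.0 CPM) had levels near those of the RPE. RPE cells were below other cells by a log2 ratio of -1.35 (-1.50 to -1.21) in control and -1.45 (-1.58 to -1.33) in Dox. Over the other tight junction genes, 12 of 27 tested were higher in RPE cells and 9 lower in control (13 and 9 of 28 in Dox). The shares over all genes were 19.4% higher and 45.2% lower in control, and 20.9% and 43.9% in Dox. Higher in control were Crb3 (log2 ratio 4.70), an apical polarity protein, Cgn (3.77), the cytoplasmic protein cingulin, and Cldn2 (3.70), a pore-forming claudin. F11r (-4.85), Cldn5 (-3.66), the claudin of vessels, and Magi1 (-3.32) were lower. Cldn10 was higher as well (3.62), so the RPE cells held UMIs of claudins other than Cldn19. In control RPE cells Cldn1 stood at 162 CPM, against 22.8 CPM for Cldn2 and 26.1 CPM for Cldn10.

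Of the cadherins, Cdh3 was the most abundant in the RPE. It had 96.5 CPM (92.2 to 101) in control and 104 CPM (100.0 to 108) in Dox RPE cells, against 5.24 and 6.80 CPM in fibroblast-like and 11.2 and 20.6 CPM in melanocyte-like cells. The red blood cell-like cluster had 65.5 CPM (48.3 to 86.8) and 100.4 CPM (83.0 to 120.3), and in Dox its interval overlapped that of the RPE. That cluster also held 1855 CPM of Rpe65 in control and 2564 CPM in Dox. Its best marker list was that of red blood cells (median log2 level 6.75) and its second that of the RPE (3.24). The part of RPE RNA in the cadherin UMIs of this cluster was not tested. The log2 ratio of Cdh3 in RPE over other cells was 3.96 (3.83 to 4.10) and 3.54 (3.41 to 3.67). Cdh2 was higher by 1.35 (1.13 to 1.57) and 1.75 (1.53 to 1.97), with 13.4 and 14.8 CPM in RPE cells, but its value was higher in Schwann-like cells (47.0 and 16.0 CPM, from 14 and 2 UMIs), in the red blood cell-like cluster (28.7 and 22.3 CPM) and in melanocyte-like cells (17.4 and 25.2 CPM). Cdh1 was highest in the melanocyte-like cells, the pigment cells of the choroid, with 73.4 CPM (67.1 to 80.1) in control and 71.5 CPM (60.6 to 83.8) in Dox. RPE cells had 3.15 CPM (2.42 to 4.03) and 0.481 CPM (0.256 to 0.822), the lowest value of the 10 cell types in both libraries. In the adherens junction list 3 of 16 tested genes were higher in RPE cells and 10 lower, in both libraries. Of all genes 19.4% were higher and 45.2% lower in control, and 20.9% and 43.9% in Dox, so the 3 of 16 is near the share over all genes. The higher genes were Cdhr1 (log2 ratio 3.97 in control), a photoreceptor cadherin, Cdh4 (3.46), which is R-cadherin, and Nectin1 (1.58). Among the lower genes, Cdh5 (-5.39) is the cadherin of vessels and Cdh11 (-5.15) that of mesenchyme.

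The keratins were highest in RPE cells. Krt18 had 1534 CPM (1517 to 1551) in control and 1623 CPM (1608 to 1638) in Dox RPE cells, against 64 and 113 CPM over the other cells. Krt8 had 321 CPM (314 to 329) and 339 CPM (332 to 346), against 13.7 and 21.9 CPM. The log2 ratios over other cells were 4.59 and 3.85 for Krt18 and 4.55 and 3.96 for Krt8. With each cell thinned to 2000 UMIs, 90.0% of control and 92.3% of Dox RPE cells had a Krt18 UMI, and 11.2% and 18.1% of fibroblast-like cells did, cells that should lack it. Unthinned, the shares were 97.8% and 99.1% of RPE cells (median depths 16462 and 19730 UMIs) and 23.5% and 38.1% of fibroblast-like cells (4601.5 and 5276 UMIs).

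The Krt18 UMIs of each type were also set against its Rpe65 UMIs. There were 28.7 Krt18 UMIs per 100 Rpe65 UMIs in control RPE cells, 27.2 in fibroblast-like, 27.3 in melanocyte-like and 27.7 in endothelial-like cells. In Dox these were 32.2, 33.0, 34.5 and 32.1. Krt8 gave 6.02 per 100 in control RPE and 5.99 in fibroblast-like cells, and 6.74 and 6.56 in Dox. The lowest ratio of Krt18 was 21.5, in control B cell-like cells, and the highest 38.2, in the control red blood cell-like cluster. The part of free RPE RNA in the keratin UMIs of the other types was not tested. In fibroblast-like cells Krt18 rose between the libraries, with 55.0 CPM in control and 91.3 CPM in Dox (log2 ratio 0.73, 0.67 to 0.79), and Rpe65 there was 202 and 277 CPM. Cdh3 kept to 1 ratio less closely than the keratins. It had 1.81 and 2.60 UMIs per 100 Rpe65 UMIs in control RPE and fibroblast-like cells and 2.06 and 2.46 in Dox. In control and Dox, melanocyte-like cells had 3.30 and 3.26, endothelial-like cells 3.65 and 3.86, and NK or T-like cells 1.82 and 2.74. The red blood cell-like cluster, whose cells had median depths of only 748 and 662 UMIs, had 709 and 974 CPM of Krt18 and 38.2 and 38.0 Krt18 per 100 Rpe65 UMIs.

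**Figure D2:**
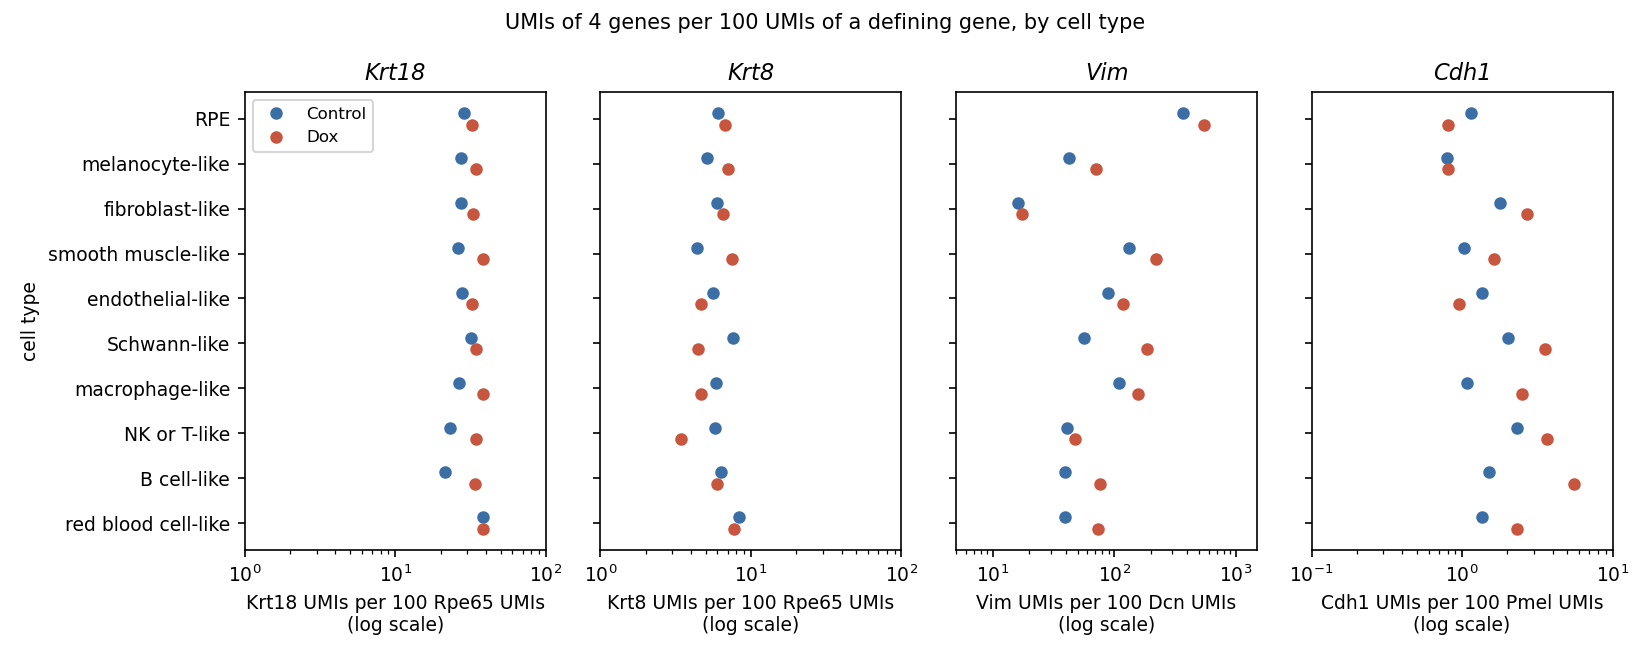
UMIs of Krt18 and Krt8 per 100 Rpe65 UMIs, of Vim per 100 Dcn UMIs and of Cdh1 per 100 Pmel UMIs (log axes) in each cell type, as points for the control and the Dox library. Krt18 lies at 21.5 to 38.2 per 100 in all types. Vim is at 368 and 551 per 100 in RPE cells and at 16.3 and 17.6 in fibroblast-like cells. The gate holds Dcn low in RPE cells, which by itself raises their Vim ratio.

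Vim was lower in RPE cells than in each of the other 9 cell types of the heatmap, but only Krt18 and Krt8 stood above it in the RPE. RPE cells had 254 CPM (247 to 261) in control and 250 CPM (244 to 256) in Dox. Fibroblast-like cells had 1551 and 1501 CPM, and smooth muscle-like cells 3024 and 3228 CPM. The log2 ratio of RPE over other cells was -2.70 (-2.74 to -2.66) and -2.66 (-2.69 to -2.62). Its UMIs in RPE cells stood at 368 (control) and 551 (Dox) per 100 Dcn UMIs, against 16.3 and 17.6 in fibroblast-like cells, the lowest value among the named types. The gate holds Dcn low in RPE cells, so their ratio is raised by the rule itself, and the source of their Vim UMIs was not tested. Thinned to 2000 UMIs, 31.2% of control and 27.5% of Dox RPE cells had a Vim UMI, against 77.7% and 75.6% unthinned. Snai2 had 9 UMIs in control and 2 in Dox RPE cells. These are 0.450 CPM (0.206 to 0.855) and 0.0739 CPM (0.00896 to 0.267), against 11.4 and 11.2 CPM in fibroblast-like cells.

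The other genes of mesenchymal transition were lower in RPE cells than in the other cells, which were mostly fibroblast-like. This held for 28 of 28 tested in both libraries, with a median log2 ratio of -3.75 in control and -4.09 in Dox. The gate leaves out cells with both Rpe65 and Dcn (389 in control, 291 in Dox), which by itself lowers fibroblast RNA in the RPE cells. The list was not repeated without that limit. Of all genes 45.2% were lower in control and 43.9% in Dox, and 19.4% and 20.9% were higher. Twist2 had 0 UMIs in RPE cells of both libraries. With it at a floor of 3 counts the medians were -3.81 and -4.21. In control Twist1, like Twist2 a mesenchymal transcription factor, stood at -5.57 and S100a4, a calcium-binding protein, at -5.46. Of the keratin, desmosome and plakin list 4 of 13 genes were higher and 4 lower in control, and 5 and 3 of 12 in Dox. Dsp, desmoplakin, stood at 3.88 in control and 3.40 in Dox, and Pkp2, a plakophilin, at 3.47 in Dox. Perp, a desmosome-associated membrane protein, stood at 2.25 and 2.13, and Evpl was higher as well. Krt80, Plec and Ppl were lower in both libraries and Eppk1 in control. Of the epithelial surface list 3 of 5 were higher in both libraries, with log2 ratios in control of 3.58 for Slc9a3r1, the scaffold of apical microvilli, 3.46 for Spint2 and 2.94 for Ezr, ezrin. Epcam and Grhl1 were lower. All 7 of 7 other intermediate filament genes were lower in control and 6 of 6 in Dox.

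Between the libraries, 7 of the 8 tested members had RPE levels within 1.5-fold of each other, and Cdh1 did not. Snai2, with 9 and 2 UMIs, and Cldn19, with 0, had too few to be tested. The 63 Cdh1 UMIs in control RPE cells made 3.15 CPM and the 13 in Dox 0.481 CPM, a log2 ratio of -2.71 (-3.70 to -1.84). The background to that 1 of 8 is that 1.54% of 12080 genes were higher and 3.27% lower. The background median was -0.01. The log2 ratios of the others were 0.08 for Tjp1 (-0.10 to 0.26), -0.20 for Ocln (-0.48 to 0.09), 0.15 for Cdh2 (-0.08 to 0.38) and 0.11 for Cdh3 (0.02 to 0.19). Krt8 (0.03 to 0.12) and Krt18 (0.06 to 0.10) both stood at 0.08 and Vim at -0.02 (-0.08 to 0.03). The same libraries differed 15.8-fold in Serpina3n and 3.42-fold in Cdkn1a, the cell cycle inhibitor p21, in RPE cells.

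Cdh1 moved together with Pmel. Pmel, the melanosome fibre protein, was 275 CPM in control and 59.7 CPM in Dox RPE cells, and the 12 melanocyte markers together were 4940 and 4140 CPM, with 4 of 12 lower and none at 0. Cdh1 per 100 Pmel UMIs was 1.15 and 0.805 in RPE cells and 0.796 and 0.810 in the melanocyte-like cells themselves. It was not the same in all types, with 1.78 and 2.68 in fibroblast-like and 2.32 and 3.69 in NK or T-like cells. Cdh1 was also lower in Dox in fibroblast-like cells (7.52 to 2.70 CPM, log2 ratio -1.48, -1.75 to -1.21) and in endothelial-like cells (10.8 to 2.12 CPM, -2.36, -5.50 to -0.31). In melanocyte-like cells it was 73.4 and 71.5 CPM (-0.04, -0.31 to 0.23). The melanocyte-like cells made up 1852 cells in control and 865 in Dox. A Cdh1 UMI was found in 4.57% of control and 0.747% of Dox RPE cells, and, thinned, in 1.16% and 0.303%, below the thinned 1.55% and 0.459% of fibroblast-like cells, whose median depths were 4601.5 and 5276 UMIs. Unthinned, 3.6% and 1.44% of fibroblast-like cells had one. The part of free RNA from melanocyte-like cells in the Cdh1 difference was not tested.

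In RPE cells below 1000 CPM of Serpina3n, 1 of 8 tested members was past 1.5-fold between the libraries, again Cdh1 (-2.50, -3.53 to -1.59), where 0.696% of 11919 genes were higher and 3.00% lower. Vim stood at 242 CPM (235 to 249) in control and at 181 CPM (175 to 186) in Dox, a log2 ratio of -0.42 (-0.48 to -0.36), short of 1.5-fold. Markers of other cell types were lower in these cells as well: the 13 fibroblast markers summed to 307 CPM in control and 175 in Dox (7 of 11 tested lower), the 13 macrophage markers to 357 and 218 (10 of 12 lower), and the 9 smooth muscle markers to 431 and 292 (5 of 7 lower). Only 1 of the fibroblast markers was at 0. The fibroblast sums include Dcn, which the gate holds under 500 CPM in each RPE cell. The part of these other cell types in the Vim difference was not tested. Krt8 was 323 and 372 CPM (0.21, 0.16 to 0.25) and Krt18 1533 and 1686 CPM (0.14, 0.12 to 0.16). In the same cells Cdkn1a differed by 1.77-fold. Serpina3n differed by 2.39-fold there, but the rule holds it below 1000 CPM in each cell, so that ratio is bounded by the rule. None of 26 tight junction genes tested was higher and 1 was lower, F11r (-0.92, from 46 and 27 UMIs).

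Within the Dox library, the Serpina3n-high RPE cells had more Vim and Cdh3 and less Krt8 and Tjp1 than the Serpina3n-low cells. Serpina3n itself set the groups and is no finding. Vim was 181 CPM (175 to 186) in low and 543 CPM (523 to 563) in high cells, a log2 ratio of 1.59 (1.52 to 1.66). Cdh3 was 90.8 CPM (86.8 to 94.8) and 160 CPM (149 to 171), 0.81 (0.69 to 0.93). Krt8 was 372 CPM (364 to 381) and 198 CPM (186 to 210), -0.91 (-1.01 to -0.82). Tjp1 was 23.9 CPM (21.9 to 26.0) and 14.4 CPM (11.3 to 18.02), -0.73 (-1.11 to -0.38). These 4 of 7 tested members were past 1.5-fold, 2 in each direction, where 5.29% of 11092 genes were higher and 12.9% lower and the median log2 ratio of all genes was -0.13.

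The other members differed less. Krt18 was 1686 CPM in low and 1358 CPM in high cells (-0.31, -0.35 to -0.28), so that there were 4.53 Krt18 UMIs per Krt8 UMI (4.42 to 4.64) in low cells and 6.87 (6.43 to 7.34) in high cells. Ocln was 8.22 and 8.34 CPM (0.02, -0.49 to 0.51) and Cdh2 14.6 and 15.7 CPM (0.11, -0.26 to 0.46). Cdh1 had 12 UMIs in low and 1 in high cells. Snai2 had 2 in low and 0 in high cells, which allows up to 0.582 CPM. The 191 high cells, 14.3% of Dox RPE cells and 19.1% of their UMIs, held 41.4% of the Vim UMIs (40.3 to 42.6), 29.3% of the Cdh3 UMIs (27.6 to 31.0), 15.9% of the Krt18 UMIs, 12.4% of the Tjp1 UMIs and 11.1% of the Krt8 UMIs (10.5 to 11.8).

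**Figure D3:**
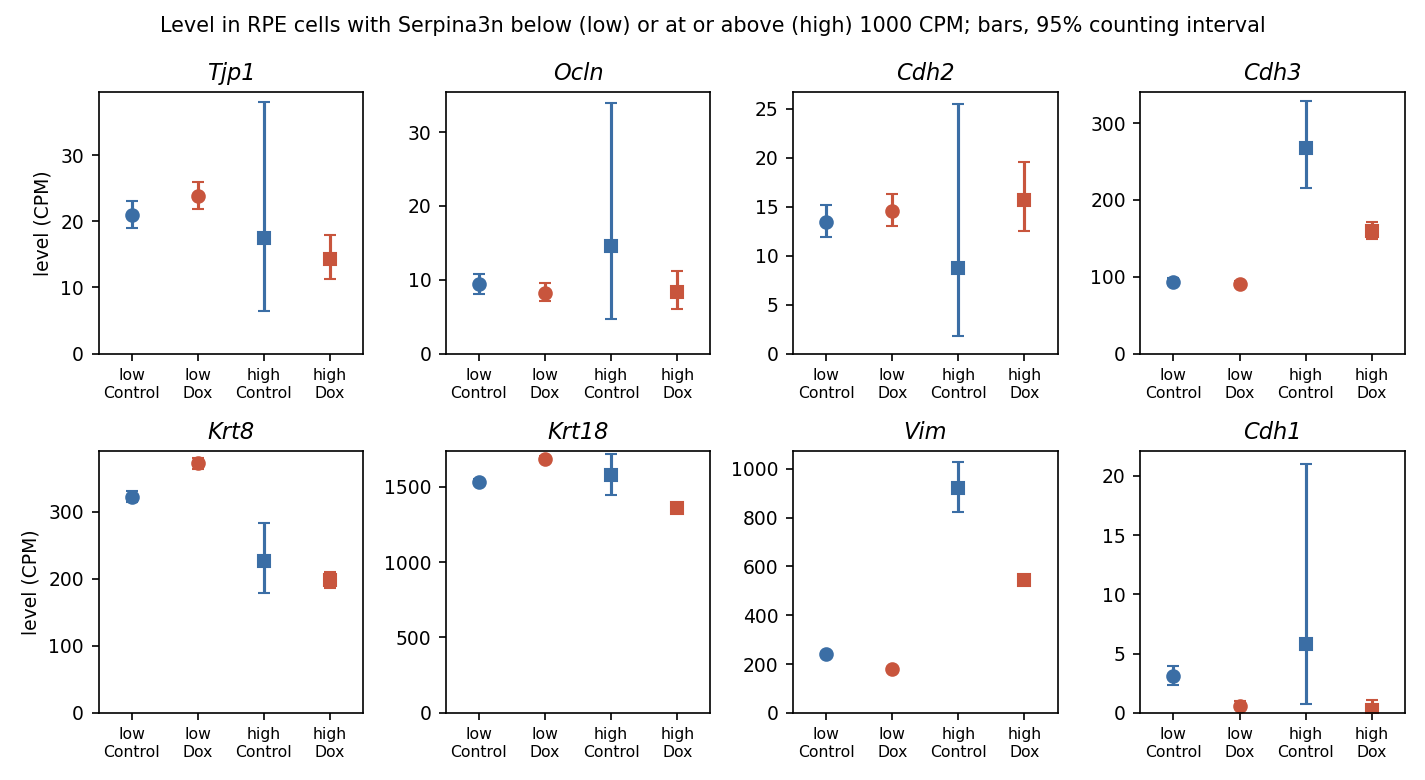
Level (CPM; bars, 95% counting interval) of 8 genes in Serpina3n-low (circles) and Serpina3n-high (squares) RPE cells of the control and Dox libraries. Vim and Cdh3 are higher in the high cells of both libraries (Vim 923 and 543 against 242 and 181 CPM), and Krt8 is at 227 and 198 against 323 and 372 CPM.

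The 11 Serpina3n-high cells of the control library gave the same direction for Vim and Cdh3. Vim was 242 CPM in low and 923 CPM (824 to 1030) in high cells, a log2 ratio of 1.93 (1.76 to 2.10), and Cdh3 93.5 and 268 CPM (216 to 329), 1.52 (1.20 to 1.82). They were the 2 of 8 tested members past 1.5-fold, both higher, where 3.64% of 10729 genes were higher and 5.12% lower. Krt8 was 323 and 227 CPM (-0.51, -0.85 to -0.19), short of 1.5-fold, and its direction turned (0.25) with cells over 2 times the median depth left out, which leaves 4 high cells. Vim was 1.10 and Cdh3 2.19 without those cells. Krt18 was 1533 and 1578 CPM (0.04, -0.08 to 0.16), and there were 4.75 Krt18 UMIs per Krt8 UMI (4.62 to 4.88) in low and 6.95 (5.47 to 8.93) in high cells. Tjp1, Ocln and Cdh2 had 6, 5 and 3 UMIs in these 11 cells, too few to place. Cdkn1a differed between the high cells of the libraries, with 26.2 CPM in control and 324 CPM in Dox. The control value rests on 9 UMIs, all of them in the 2 cells with 5000 CPM or more of Serpina3n, and the other 9 cells had 0.

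**Figure D4:**
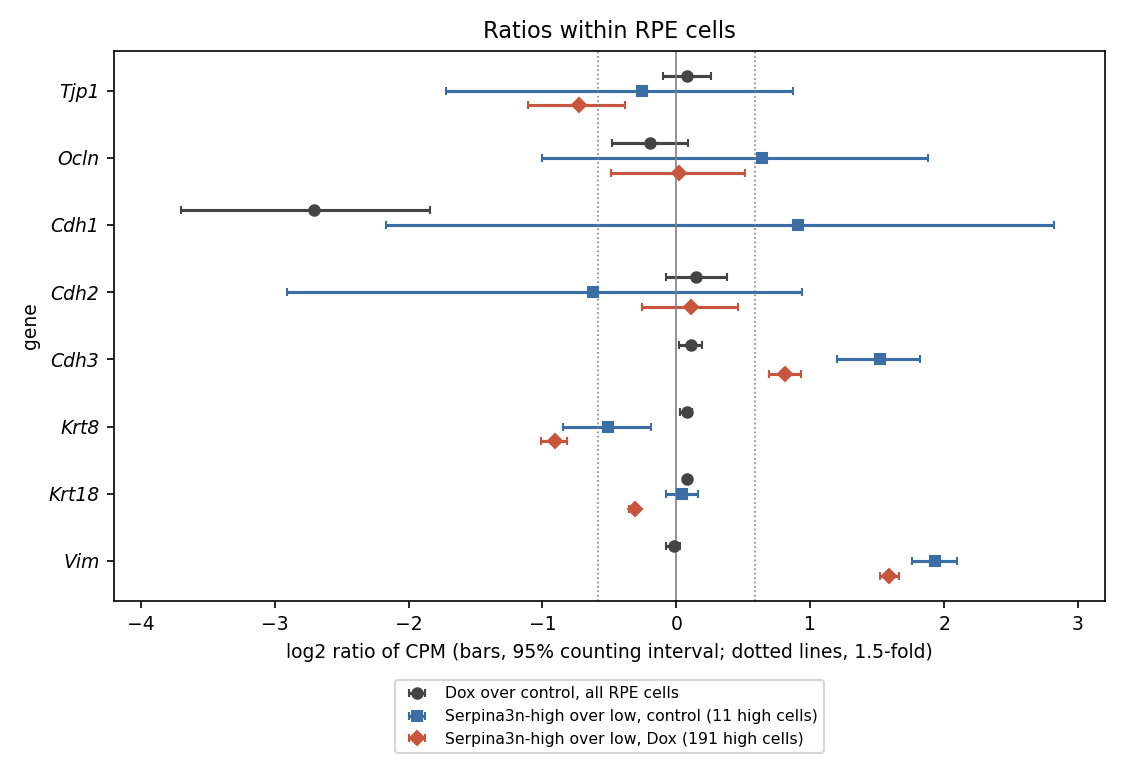
Log2 ratios of CPM (bars, 95% counting interval; dotted lines, 1.5-fold) for Dox over control in all RPE cells and for Serpina3n-high over Serpina3n-low cells in each library. The Dox over control values lie within 0.20 of 0 except for Cdh1, whereas within both libraries Vim and Cdh3 lie above 1.5-fold. The Dox value of Cdh1 for high over low cells is left out, having 13 UMIs.

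Across finer steps of Serpina3n, Vim was already higher in the second step than in the first in both libraries, and higher again from the third step on. Krt8 was lower from the third step on in Dox. In control it was already lower in the second step (296 CPM, 275.6 to 317.3) than in the first (329 CPM, 320.5 to 338.0). Cdh3 was higher in the last 2 steps than in the first 2. In Dox RPE cells with no Serpina3n UMI (650 cells), under 300 CPM (426), 300 to 1000 (72), 1000 to 5000 (98) and 5000 CPM or more (93), Vim was 138, 181, 597, 566 and 524 CPM. Cdh3 was 83.6, 98.3, 105, 136 and 179 CPM over the same steps. Krt8 was 377, 382, 258, 208 and 189 CPM. In Dox the Vim intervals of the steps on both sides of 1000 CPM overlapped, as did those of Krt8 and Tjp1 in the last 2 steps, where Tjp1 was 18.6 and 10.7 CPM. The Cdh3 interval of the last step (163.7 to 195.5) lay above those of all others. Krt18 stayed at 1683, 1689 and 1682 CPM over the first 3 steps and was 1419 and 1306 CPM in the last 2. Rpe65, of which the gate asks at least 10 UMIs in every cell, was 6042 CPM in the first step and 1633 in the last. In control Vim was 206, 397, 690, 822 and 1308 CPM over the 5 steps, with 989, 117, 20, 9 and 2 cells. Cells of the same step are not independent samples, and their median depths differed, in Dox from 9324.5 UMIs in the step of 300 to 1000 CPM to 29408 in the last.

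**Figure D5:**
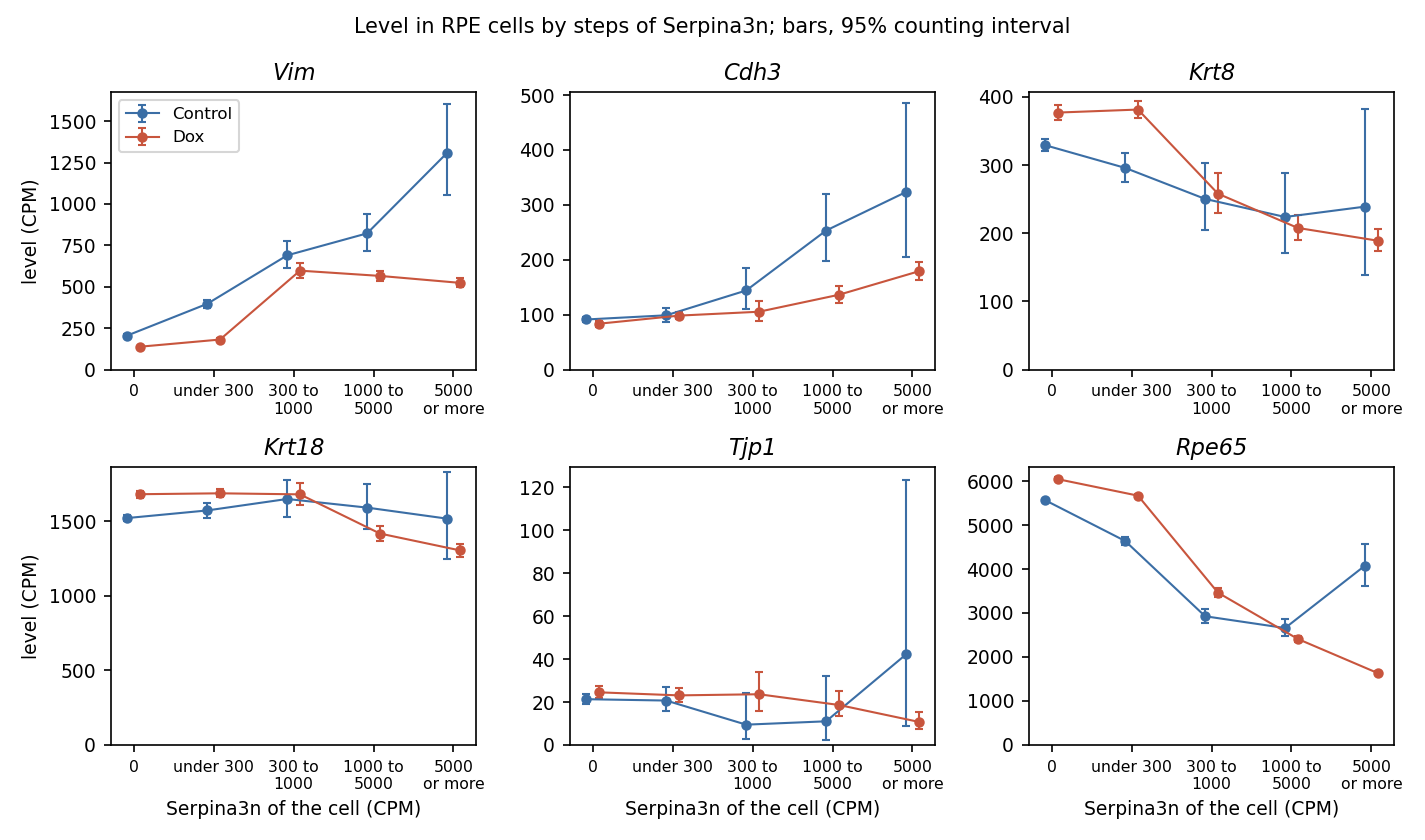
Level (CPM; bars, 95% counting interval) of Vim, Cdh3, Krt8, Krt18, Tjp1 and Rpe65 in RPE cells grouped by the Serpina3n level of the cell, for control and Dox. In Dox, Vim is 138 and 181 CPM in the first 2 steps and 524 to 597 CPM in the rest, and Krt8 is 377 to 382 and then 189 to 258 CPM. The gate asks for at least 10 Rpe65 UMIs in every cell.

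The high cells were deeper than the low cells, and 2 checks of depth were made. With Dox RPE cells of 15000 to 35000 UMIs only (122 high, 535 low), a choice made after the data were seen, the log2 ratios were 1.49 (1.40 to 1.59) for Vim, 0.92 (0.77 to 1.06) for Cdh3 and -0.95 (-1.07 to -0.83) for Krt8. Tjp1 was -0.40 (-0.85 to 0.03) there and no longer past 1.5-fold. With each cell thinned to 5000 UMIs, Tjp1 was -1.19 (-2.22 to -0.30), Vim 1.51, Cdh3 0.78 and Krt8 -0.88. Markers of macrophages, fibroblasts and smooth muscle were not higher in the high cells as a group. Macrophage markers summed to 113 CPM in high and 218 in low cells (1 higher, Cd68, and 7 lower of 9 tested). Fibroblast markers summed to 143 and 175 (1 higher and 3 lower of 10), and smooth muscle markers to 243 and 292 (0 and 3 of 7). Of 3 retinal glia markers tested 1 was higher (Dkk3) and 1 lower (Apoe). Their median log2 ratio was 0.42, and the list summed to 5092 and 6798 CPM. Of 4 Schwann markers tested 1 was higher (Cdh19) and 0 lower, with sums of 99.9 and 107 CPM. The part of these cell types in the Vim difference was not tested. The fibroblast sums include Dcn, which the gate holds under 500 CPM in each RPE cell, so they are bounded by the rule. Melanocyte markers, many of which RPE cells also make, summed to 5688 and 3776 CPM, with none at 0. Of 12 tested only 2 were higher (Gpnmb and Mlana), 1 was lower (Pmel) and 9 were neither, with a median log2 ratio of 0.07.

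Vim varied between RPE cells far beyond counting noise, and the keratins less so. With each RPE cell thinned to 5000 UMIs, the variance of Vim was 3.72 times its mean in control and 4.31 times in Dox, where counting alone gives about 1. It was 1.92 and 1.91 for Krt18, 1.59 and 1.34 for Krt8 and 1.23 and 1.25 for Cdh3. This ratio depends on the mean of the gene, so its order over Krt18, Krt8 and Cdh3 does not rank their spread. The control means were 7.13 UMIs per cell for Krt18, 1.58 for Krt8, 1.19 for Vim and 0.535 for Cdh3. The 5% of cells with most Vim held 33.4% of its UMIs in control and 38.0% in Dox, against 18.1% and 16.8% for Krt8. At that depth a cell's Vim ran from 0 to 26 UMIs in control and from 0 to 31 in Dox, with medians of 1 and 0. In Dox, 43.8% of low cells (40.8 to 47.0) and 73.9% of high cells (66.8 to 80.1) had a Vim UMI. The median depths of the low and high cells before thinning were 18071 and 28306 UMIs. For Cdh3 these shares were 36.8% and 57.8%, for Krt8 79.7% and 65.6%, and for Krt18 99.8% and 99.4%. The groups overlapped cell by cell: in Dox, Vim ranged from 0 to 4004 CPM (median 89.9) in low and from 0 to 4632 CPM (median 317) in high cells, and Krt8 from 0 to 1884 (median 343) and from 0 to 909 CPM (median 183).

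Across single RPE cells the correlations between members were small. At 5000 UMIs per cell, Krt8 and Krt18 had a Pearson r of 0.15 over 995 control cells and 0.16 over 1193 Dox cells, which share a library each and hold few UMIs per cell. The values were -0.06 in both for Krt8 with Vim, and 0.03 and 0.02 for Cdh3 with Vim. At such counts values this small are no finding. They cannot show whether the genes vary together, because counting noise pulls r towards 0.

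Most other junction genes were not past 1.5-fold between Serpina3n-high and low cells of the Dox library, and those that were stood lower. Over all genes in this comparison 12.9% were lower and 5.29% higher. Of 25 tight junction genes tested 0 were higher and 9 lower and 16 neither, with a median log2 ratio of -0.26 against -0.13 over all genes. Cldn2 was 23.5 CPM in low and 1.94 CPM in high cells (-3.60, -4.67 to -2.71), Cldn10 22.3 and 5.04 CPM (-2.15) and Cgn 15.7 and 7.57 CPM (-1.05). Cldn2 and Cldn10 were among the genes higher in RPE than in other cells. Cldn1 was also among the 9 lower genes, with 176 CPM in low and 101 CPM in high cells (-0.80, -0.93 to -0.67). Of 15 adherens junction genes 0 were higher, 12 neither and 3 lower: Cdh4 (21.7 and 7.57 CPM, -1.52), Cdhr1 (69.8 and 36.9 CPM, -0.92) and Cdh11 (112 and 13 UMIs, -1.02). Of 9 keratin, desmosome and plakin genes 0 were higher, 6 neither and 3 lower: Dsp (-0.93), Pkp2 (-0.84) and Krt10 (-0.65). The list's median was -0.27. With 15 and 9 genes, the counts of the last lists rest on 3 genes each.

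In the same comparison most mesenchymal genes were not past 1.5-fold. Of 19 tested 3 were higher, 2 lower and 14 neither, where 5.29% of all genes were higher and 12.9% lower. Their median log2 ratio was -0.11, against -0.13 over all genes. Summed, the list stood at 1286 CPM in low and 1515 CPM in high cells. Higher were Ccn2 (17.5 CPM in low and 32.6 in high cells, 0.89) and Lgals1, galectin-1 (108 and 170 CPM, 0.66), and also Tgfb2, a TGF-beta ligand. Lower were Tpm2, a tropomyosin (-0.63), and Zeb2 (-0.59), a zinc-finger repressor of Cdh1. Of the 14 RPE identity genes tested 0 were higher and 5 lower, with Rpe65 at 5751 and 1989 CPM (-1.53), Rgr, an opsin of the RPE, at -0.94 and Pmel at -0.64. Rlbp1 and Lrat, of the visual cycle, were the others. Rpe65 also set the gate, with at least 10 UMIs in every cell, so its level in both groups is bounded by the rule. In the 11 high cells of control, 4 of 25 tight junction genes were lower (Cldn1, Cldn2, Cldn10, Cldn12) and 1 higher (Tjp3), where 5.12% of all genes were lower and 3.64% higher. Cldn10 had 1 UMI and Cldn2 2 UMIs in those cells, and Dsp had 4, ratios of -3.19 (-8.49 to -0.70), -1.99 (-5.04 to -0.12) and -1.78 (-3.66 to -0.42). Of 22 mesenchymal genes tested there 2 were higher, 3 lower and 17 neither. Higher were Lgals1 (114 and 195 CPM, 0.78, 0.41 to 1.13) and Tgfb2, from 4 UMIs in the high cells. Lower were Ccn1 (154 and 52.4 CPM, -1.56, -2.31 to -0.89), Tpm1 (-1.17, -2.17 to -0.32) and Tpm2, with 0 UMIs in the high cells.

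Between the libraries, over all RPE cells, 0 of 26 tight junction genes were higher and 1 lower (F11r, -1.01), 1 of 15 adherens junction genes lower (Cdh11, -0.60), and 0 of 9 keratin, desmosome and plakin genes past 1.5-fold. Of 25 mesenchymal genes 0 were higher and 9 lower, where 1.54% of all genes were higher and 3.27% lower. They include Tagln (31.8 to 17.6 CPM, -0.85), a smooth muscle gene, and Mmp14 (20.5 to 11.7 CPM, -0.80), while the summed smooth muscle markers stood at 430 and 283 CPM in the same cells. Their part in the result was not tested.

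The genes with the most similar pattern to each member, by Pearson's r of log2(CPM + 1) over the 10 cell types in 2 libraries (20 points, which share libraries and free RNA), were found for the 9 members with at least 200 UMIs. Krt18 lay closest to Rdh5 (0.994), Ttr (0.993) and Cox8b (0.993), and Krt8 to Acsl6, Rlbp1 and Rd3l (0.987 each), Rdh5 and Rlbp1 being genes of the visual cycle. Krt8 and Krt18 had 0.976 with each other. Cdh3 lay closest to Lrp2 (0.978), Flvcr2 (0.974) and Cldn1 (0.965), and Cdh1 to Mlph (0.960), Gjb2 (0.958) and Pmel (0.932). Vim was closest to Atf3 (0.943), Soga1 and Mafk, and Tjp1 to Ro60 (0.948), Id1 and Uaca. Ocln was closest to Palmd (0.919), Cdh2 to BC029722 (0.892) and Snai2 to Fam217a (0.930). Vim ran against Krt8 (-0.757), Krt18 (-0.738) and Cdh3 (-0.743) over the same points.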

How the data were processed

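The authors aligned and counted the reads with Cell Ranger (version 4.0.0 by the file header) against mm10 and deposited raw UMI counts per gene and barcode, 117731270 UMIs in 20381 control and 103997248 in 15649 Dox barcodes. Cells entered with more than 500 UMIs, more than 200 but fewer than 6000 genes, a ratio of log10 genes to log10 UMIs over 0.8 and less than 0.2 of UMIs from mitochondria. No doublet caller was run. The limits on genes and on Dcn are meant to remove mixed droplets. The limit on Dcn left out 389 control and 291 Dox cells that held both Rpe65 and Dcn. Whether these were mixed droplets was not tested. The study counted a cluster with Dcn as its leading marker among its RPE cells.

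Cells were clustered without the members (2000 genes, 30 components, 15 neighbours, resolution 0.5, leidenalg 0.10.2) and named "-like" from marker lists by a rule set after the clusters were seen. UMIs were summed per group. Levels carry exact Poisson, ratios exact conditional binomial and shares Clopper-Pearson intervals (scipy 1.17.1). A gene was past 1.5-fold when its ratio was, its interval excluded 1 and it had at least 50 UMIs over both groups. This step was tested on simulated data. Thinning was drawn 10 times for ratios.

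The members, lists and rules were chosen with earlier results of these data known. The text names the members, at most 3 genes per list and direction with the largest ratios and at least 200 UMIs, and markers beside a result. Genes named outside this rule, where 5 or fewer were called, for Cldn10 over other cells and for Cldn1, were chosen after their values were seen. Matches to a further motif are not reported here.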

Additional observations from a re-analysis of the deposited data

How the results depend on the processing

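There were 20 alternatives, 17 planned and 3 added after the data were seen (RPE cells of RPE-like clusters only, RPE cells of 15000 to 35000 UMIs, other cells without the red blood cell-like cluster). Of 95 counts of members past 1.5-fold or of RPE cells under them, 92 lay within 1.5 times the value given. The 3 that moved were these. For Dox over control the count was 0 with cells thinned to 5000 UMIs and 0 with at least 200 UMIs per gene, in both cases because Cdh1 then had too few UMIs to be tested. For Serpina3n-high over low cells of control it was 4 with the mean of the cells' own CPM, which added Tjp1 and Cdh2 (6 and 3 UMIs in the high cells). That setting has no counting interval, so calls under it, also in the tallies below, rest on the ratio alone. Of 684 ratios of single members 129 moved beyond their counting interval and 0 called ratios changed sign. Vim and Cdh3 in high over low cells stayed past 1.5-fold under all 18 alternatives in both libraries, Vim at 1.13 to 1.72 in Dox and 1.10 to 2.31 in control, and Krt8 in Dox at -1.01 to -0.78. Tjp1 in Dox was past 1.5-fold under 17 of 18 (-1.19 to -0.40). Cdh1 for Dox over control ran from -3.33 to -1.62, past 1.5-fold in 13 of 13 where it was tested. Krt8 in control was past 1.5-fold under 5 of 18 and ran from -1.12 to 0.25. No paired analysis was possible because each group is 1 library. Depth limits Snai2, Ocln, Cdh2 and the 11 high cells of control, and with 1 library per group the drug, the mice and the preparation cannot be told apart.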
